A study of Mus musculus with 4 samples.

Results

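The nuclear genes of oxidative phosphorylation were taken from RefSeq (GRCm38) as the protein-coding genes whose symbols begin with Nduf followed by a, b, c, s or v, with Uqcr, with Cox4 to Cox8 or with Atp5, together with Sdha, Sdhb, Sdhc and Sdhd. This rule gave 96 of 21887 nuclear protein-coding genes. They comprised 39 subunit genes of complex I, 4 of complex II, 8 of complex III, 20 of complex IV and 17 of complex V, with 8 assembly factors of complex I. Ndufa4 and its relative Ndufa4l2 were placed with complex IV, and Ndufb4b and Ndufb4c with complex I. The study looked for the chromatin sites and target genes of Fbxl10, a histone demethylase also named Kdm2b, in a gain of function model. Mouse embryonic fibroblasts overexpressing HA-tagged Fbxl10 were either given doxycycline (1 µg/ml, 48 hours) to switch the transgene on, or left without it, and chromatin was precipitated with an HA antibody and sequenced. Both groups carried the transgene, so they differ in doxycycline as well as in HA-Fbxl10, and the effects of the drug and of the protein cannot be told apart. The labels do not name the promoter or the strain, and how the 3 independent samples of the protocol relate to the files could not be settled from the labels.

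Each of the 2 ChIP groups was represented by 1 peak list, with 5497 induced and 10532 non-induced peaks, so there was no replicate check and no test between conditions. Each peak carries a score that the authors' peak caller wrote, which starts at 50 in both lists and was used here to rank peaks within a list. Read depth is unknown. A peak list holds no expression level, so the fibroblast label could not be checked against marker genes. A gene was called marked when a peak lay within 1 kb of its start or end, and every interval is an exact (Clopper-Pearson) 95% interval of counting error alone.

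Oxidative phosphorylation is carried out in the inner mitochondrial membrane. Complexes I and II pass electrons from NADH and succinate to coenzyme Q, complex III passes them to cytochrome c, and complex IV to oxygen, while complex V uses the resulting proton gradient to make ATP. Most subunits are encoded in the nucleus and a small set in mitochondrial DNA, and the promoters of nuclear subunit genes are often rich in CpG and known for sites of the transcription factors NRF1, GABP (an Ets factor), YY1 and Sp1. Kdm2b binds unmethylated CpG-rich DNA through a zinc finger domain.

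The stretches of DNA before the transcription start are shown here for the genes that the results turn on, from RefSeq's promoter table (GRCm38.p6), each on the strand of its gene, 5′ to 3′, ending at the base before the start. Only genes whose listed start lies at the outer end of the gene were taken, up to 250 bases were printed, and a stretch stops where another coding gene begins. Capitals mark matches on either strand to GCATGCGC (NRF1), CCGGAAG (Ets factors), AAGATGGCG (YY1) or GGGCGG (Sp1). Among the genes taken, the first 3 are the marked ones with the highest induced scores. They lie at chr9:108567437-108567483, which is the whole gap between Ndufaf3 and the divergent gene Dalrd3, at chr5:115348959-115349208 and at chr15:102671048-102671297, all on the minus strand. Ndufs7, whose score of 147 lies between those of Ndufaf3 and Cox6a1, was not among the genes taken.
Ndufaf3: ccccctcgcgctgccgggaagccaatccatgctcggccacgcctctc
Cox6a1: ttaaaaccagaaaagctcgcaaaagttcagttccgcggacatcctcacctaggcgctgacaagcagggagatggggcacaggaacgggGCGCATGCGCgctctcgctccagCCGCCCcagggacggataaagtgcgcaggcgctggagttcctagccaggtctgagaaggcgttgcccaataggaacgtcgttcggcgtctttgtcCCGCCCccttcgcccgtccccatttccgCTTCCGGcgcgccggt
Atp5g2: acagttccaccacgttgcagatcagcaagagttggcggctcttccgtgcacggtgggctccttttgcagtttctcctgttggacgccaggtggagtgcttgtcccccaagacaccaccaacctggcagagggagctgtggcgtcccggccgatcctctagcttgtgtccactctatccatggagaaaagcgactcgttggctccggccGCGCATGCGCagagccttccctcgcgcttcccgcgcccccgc
The next is the gene marked in both lists, at chr9:44920743-44920992 on the minus strand.
Atp5l: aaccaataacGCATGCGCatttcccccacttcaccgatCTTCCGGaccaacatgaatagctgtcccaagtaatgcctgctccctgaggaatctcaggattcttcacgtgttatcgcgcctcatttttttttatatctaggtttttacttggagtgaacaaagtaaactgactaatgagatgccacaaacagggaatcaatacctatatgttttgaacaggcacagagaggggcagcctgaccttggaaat
Atp5j (43 CpG in its whole promoter entry) and Cox5a (35) have no induced peak within 5 kb, but were not taken. Of the genes taken without such a peak, the last 2 have the most promoter CpG (Atp5h 32, Uqcrfs1 31). They lie at chr11:115419920-115420093, where the stretch meets Kctd2, and at chr13:30545317-30545566, both on the minus strand.
Atp5h: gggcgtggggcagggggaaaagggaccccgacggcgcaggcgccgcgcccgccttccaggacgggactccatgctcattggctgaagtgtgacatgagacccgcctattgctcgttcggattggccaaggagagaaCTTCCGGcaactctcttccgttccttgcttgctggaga
Uqcrfs1: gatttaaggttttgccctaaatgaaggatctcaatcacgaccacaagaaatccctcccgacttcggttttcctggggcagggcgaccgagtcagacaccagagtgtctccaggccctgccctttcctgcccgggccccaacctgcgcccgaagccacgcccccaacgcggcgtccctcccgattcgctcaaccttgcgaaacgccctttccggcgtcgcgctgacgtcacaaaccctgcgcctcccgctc

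The induced peaks cover all of the printed Ndufaf3, Cox6a1 and Atp5l stretches, and the nearest base of the Atp5g2 peak lies 289 bp before its start, beyond the printed bases. Cox6a1 holds the NRF1 letters on both strands, first at 162 and 160 bases before the start, as overlapping matches in a single stretch. It holds the Ets letters 16 bases before the start. Atp5g2 holds the NRF1 letters 42 and 40 bases before its start, likewise overlapping on both strands of a single stretch. Atp5l has them 240 bases before the start and the Ets letters at 212. The printed stretches hold 5 CpG in 47 bases for Ndufaf3, 26 in 250 for Cox6a1, 19 in 250 for Atp5g2 and 7 in 250 for Atp5l. The unmarked Uqcrfs1 stretch held 23 CpG in 250 bases, between those of Atp5g2 and Cox6a1, and none of the 4 motifs. The other unmarked stretch, that of Atp5h, held 14 CpG in 174 bases and the Ets letters 38 bases before the start. The marked Ndufaf3 stretch, like that of Uqcrfs1, held none of the 4 motifs.

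Of the 96 genes, 16 (16.7%, interval 9.84 to 25.6) were marked in the induced list, against 13.4% of all nuclear protein-coding genes, which lies inside that interval. In the non-induced list 2 (2.08%, 0.253 to 7.32) were marked, against 1.59% of all genes. The ratio of induced to non-induced marked genes was 8 among the oxidative phosphorylation genes and 8.42 among all genes. Both shares were thus near those of all genes. The ratio of 8 rests on 2 genes of the non-induced list, too few to compare its size closely with that of all genes. Within 5 kb, 21 genes (21.9%, 14.1 to 31.5) had an induced peak, against 18.4% of all genes, and 5 (5.21%, 1.71 to 11.7) a non-induced peak, against 5.36%. High scores were no more frequent either: 4 genes (4.17%, 1.15 to 10.3) had an induced peak of score 100 or more within 1 kb, against 4.25% of all genes. No such non-induced peak was found at the 96 genes (upper limit 3.12%), where all genes had 0.11%.

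**Figure D1:**
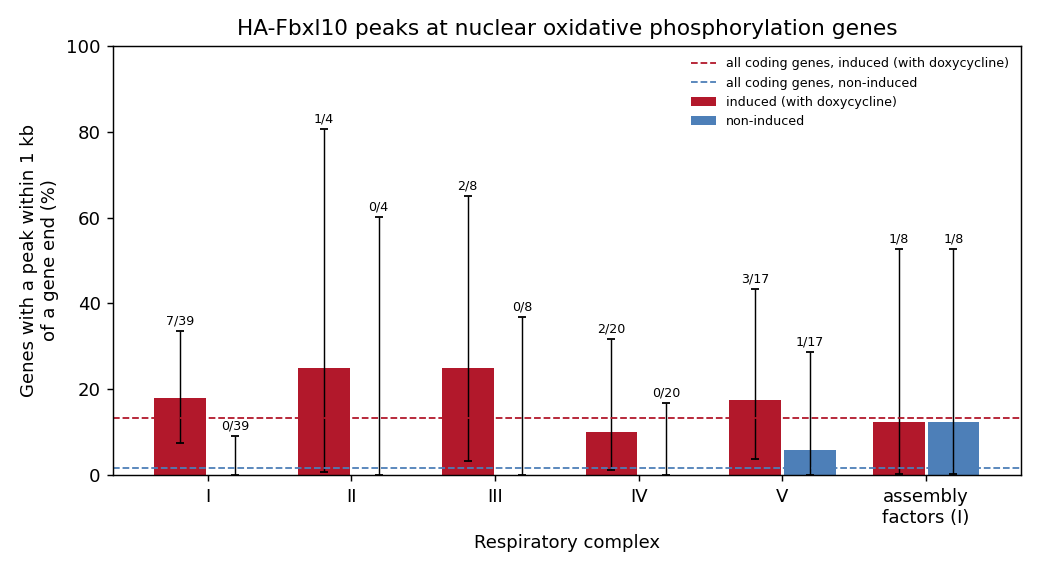
Share of genes with a peak within 1 kb of a gene end (vertical axis, %) for each respiratory complex and for the complex I assembly factors, in the induced (red) and non-induced (blue) list. Whiskers are exact 95% binomial intervals, the numbers above them are marked genes of all genes in the group, and dashed lines give the share of all coding genes (13.4% and 1.59%). All 6 induced intervals include the dashed line of their list.

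Complex I, which oxidises NADH, had 7 marked genes of 39 (17.9%, 7.54 to 33.5) in the induced list. Of its 7 nuclear core subunits, those kept from bacteria that carry the electron path, 3 were marked (42.9%, 9.90 to 81.6). The 13.4% of all genes lies inside both intervals. Ndufs7, whose product holds the last iron-sulfur cluster before coenzyme Q, had a score of 147 (chromosome 10, 80248745 to 80249705), and ranked 403 of the 5497 induced peaks. This peak also lies within 1 kb of the tRNA genes n-TFgaa3 and n-TNgtt7. Ndufs1, the large iron-sulfur subunit of the peripheral arm, had 84.5 at an end shared with the translation elongation factor gene Eef1b2. Ndufv2, an iron-sulfur subunit of the NADH-oxidising module, had 2 peaks within 1 kb, of 75.6 and 52.1. The higher score of each of these 3 genes lay above the median of the induced list (66.6), and the second Ndufv2 peak near its lower limit.

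The other 4 marked genes of complex I encode supernumerary subunits, which surround the core. Ndufa6 had a score of 99.2 and Ndufa7 one of 93.3, the latter at an end shared with the ribosomal protein gene Rps28. Ndufa2 (52.2, shared with the splicing factor gene Ik) and Ndufa12 (51.2) lay just above the lowest score of the list. Ndufs6, an accessory subunit, had an induced peak 2.24 kb outside the gene (70.9), at Mrpl36. Among the core subunits with no induced peak within 5 kb, the nearest lay 6.40 kb from Ndufv1, 22.7 kb from Ndufs8 and 165 kb from Ndufs3. No complex I gene was marked in the non-induced list (upper limit 7.69%), where 1.59% of all genes were. Within 5 kb, Ndufb9 had a non-induced peak, 2.37 kb away (64.3), near Mtss1.

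Among the 8 assembly factors, Ndufaf3 carried the highest score of the 96 genes (398, chromosome 9, 108566165 to 108568441), rank 13 of the 5497 induced peaks. That peak was 2277 bp wide, the widest at these genes, and its 1 kb surroundings also hold an end of Dalrd3, Impdh2 and the microRNA genes Mir191 and Mir425. Ndufaf4, which is known to act with Ndufaf3 in building the coenzyme Q module, had no induced peak within 157 kb. It had a non-induced peak (64.8, chromosome 4, 24904985 to 24905578) at its 3′ end, 6902 bp and more downstream of its start. The 2 partners were thus marked in different lists. Few genes were marked in both: 74 of 21887 in all, beside 348 marked in the non-induced list. The other 6 assembly factors had no peak of either list within 5 kb.

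Complex II oxidises succinate and is also an enzyme of the tricarboxylic acid cycle. In the induced list it had 1 marked gene of 4 (25%, 0.631 to 80.6), against 13.4% of all genes. Sdha, the flavoprotein that binds succinate, had an induced peak of 71.3 at its 5′ end, shared with the divergent Ccdc127, and a non-induced peak of 53.7 inside the gene, 13.0 kb from the nearest end. Sdhc, a membrane anchor, had a non-induced peak 3.14 kb away (88.9). Sdhb and Sdhd had their nearest induced peaks at 81.2 and 55.2 kb.

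Complex III had 2 marked genes of 8 (25%, 3.19 to 65.1) in the induced list, against 13.4% of all genes. Uqcrc2, a core protein of the matrix side, had a score of 77.2, and Uqcrh, the hinge protein beside cytochrome c1, one of 54.8 at an end shared with Lrrc41. Uqcrh had a second induced peak 1.40 kb away, with the higher score of 76.4. Uqcrfs1, the Rieske iron-sulfur protein, and Uqcrc1 had none within 403 and 81.9 kb.

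Complex IV, cytochrome c oxidase, had 2 marked genes of 20 (10.0%, 1.23 to 31.7). Cox6a1, the form of subunit 6A found in most tissues, had a score of 146 (chromosome 5, 115348753 to 115349719). Cox6c had 51.9, and this peak lay 615 bp from the end of the gene, the farthest of those counted. Beyond it, the next at any of the 96 genes was the second Uqcrh peak. Ndufa4l2, which is induced in low oxygen, had peaks inside the gene, 2.87 kb from its nearest end (163), and 4.25 kb outside, at Shmt2 (90.6). Cox4i1, Cox5a and Cox5b had their nearest induced peaks at 131, 11.9 and 134 kb. The forms restricted to muscle, testis or hypoxic cells and the 2 Ndufb4 copies (Cox4i2, Cox6a2, Cox6b2, Cox7a1, Cox7b2, Cox8b, Cox8c, Ndufa4l2, Ndufb4b and Ndufb4c) had 0 marked genes of 10 in either list, which allows up to 30%. The shares of all genes, 13.4% induced and 1.59% non-induced, lie below that limit. The 5 of these 10 with a promoter entry had a median of 7 CpG in 300 bases, against 20 for the 78 oxidative phosphorylation genes with one.

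Complex V, the ATP synthase, had 3 marked genes of 17 (17.6%, 3.80 to 43.4) in the induced list. Atp5g2, one of the genes that encode the rotating c ring, had a score of 120.3, while its sister genes Atp5g1 and Atp5g3, which encode the same mature protein, had their nearest induced peaks 6.92 and 90.7 kb away. Atp5l, subunit g of the membrane part, had 91.7, and Atp5md, a small subunit of the same part, 64.5 at an end shared with Pdcd11. Atp5b and Atp5d, both of the catalytic head and stalk, had peaks between 1 and 5 kb: Atp5b had 2 downstream of the gene, of 62.45 and 60.75, and Atp5d had 1 inside the gene, 2.27 kb from its nearest end (95.1). The Atp5d peak ends upstream of a start listed in the promoter table (its near edge at -438 bp), so that Atp5d counts as marked when only listed starts are used. Atp5j, a subunit of the peripheral stalk, had no induced peak within 52.4 kb but 2 non-induced ones within 5 kb, of 61.9 and 51.5.

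Atp5l was the gene marked in both lists, as were 74 genes of 21887 in all (0.338%). Its non-induced peak (54.9, chromosome 9, 44921013 to 44921529) lies wholly inside the induced peak (91.7, 44920743 to 44921667), upstream of the start. The induced list ranks it 1468 of 5497 and the non-induced list 7484 of 10532. None of the other 16 induced peaks at these genes overlapped a non-induced peak. Such overlap was rare in the whole induced list too, with 185 of 5497 peaks (3.37%).

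**Figure D2:**
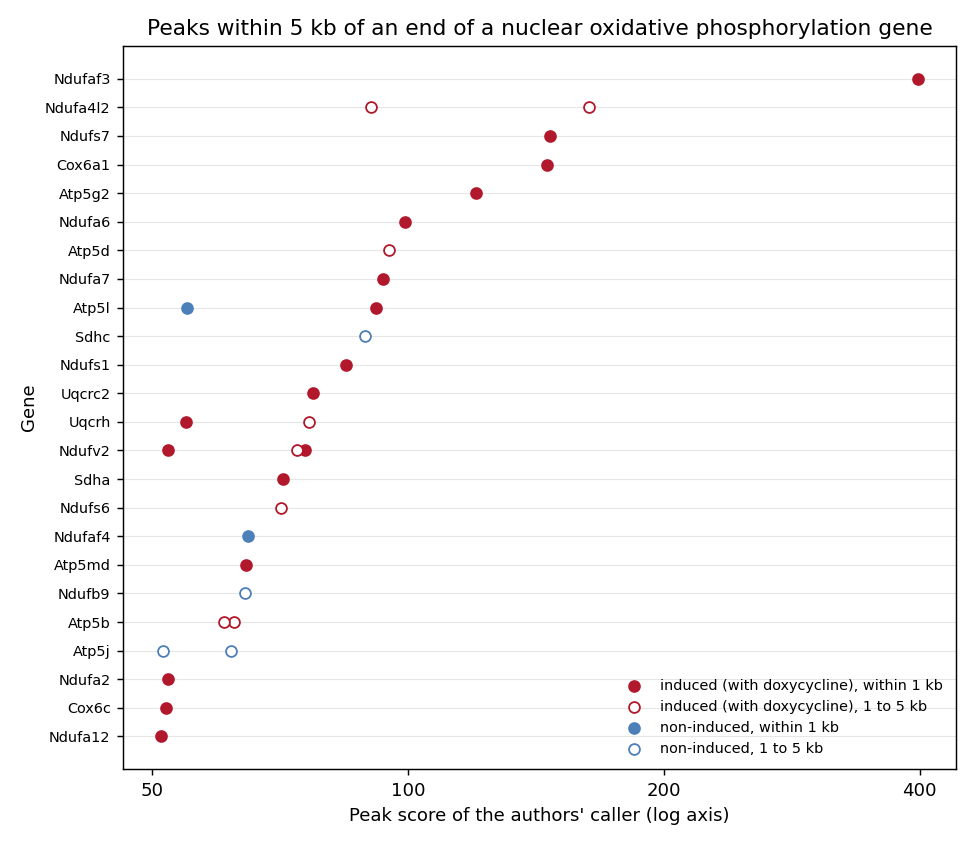
Score of peaks within 5 kb of an end of the oxidative phosphorylation genes named in the text (horizontal axis, the authors' score, log axis), by gene. Filled circles are peaks within 1 kb and open circles those at 1 to 5 kb, red for the induced and blue for the non-induced list. Ndufaf3 stands alone at 398 and the other induced peaks lie between 51.2 and 163.

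The 17 induced peaks behind the 16 marked genes had a median score of 77.2, against 78.6 for the 2591 induced peaks within 1 kb of any coding gene. Their median width was 916 bp, against 864 bp. In score and width they were thus close to peaks at other genes. The median distance from a gene end to the nearest induced peak was 52.5 kb for the 96 genes and 89.9 kb for all coding genes, and to the nearest non-induced peak 128 and 138 kb. Within 50 kb, 49.0% of the 96 genes had an induced peak, against 39.6% of all genes, and 29.2% a non-induced one, against 27.9%.

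**Figure D3:**
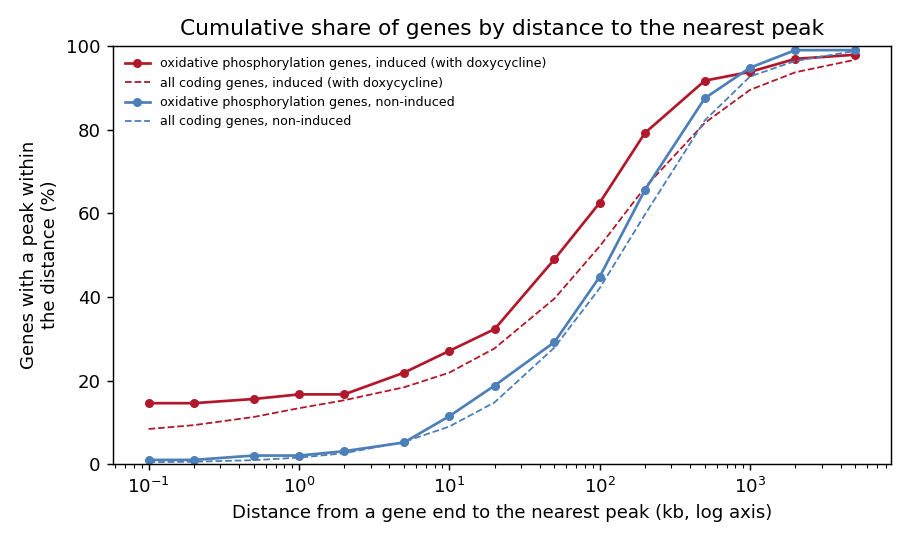
Share of genes (vertical axis, %) with a peak within a given distance of a gene end (horizontal axis, kb, log axis), for oxidative phosphorylation genes (solid) and all coding genes (dashed), in the induced (red) and non-induced (blue) list. The solid red line runs above the dashed red one, at 49.0% against 39.6% within 50 kb, and the blue lines lie close together.

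Most of these peaks covered the gene end itself. In 13 of the 16 marked genes (81.2%, 54.4 to 96.0) an induced peak held the base at the gene end, against 54.6% of the 2930 marked genes in all, just inside that interval. The strand was known for 12 of the 16, from the promoter table. In 11 of these (91.7%) the peak was near the 5′ end alone, against 88% of all marked genes of known strand. In Ndufaf3, which is short, the peak reached within 1 kb of both ends. None was near the 3′ end alone, against 6.57% of all marked genes of known strand. With 12 genes these shares cannot be told apart. Measured from the nearest listed start, and with Atp5d included, peak midpoints lay between -875 and 295 bp, upstream being negative (13 genes, median -3 bp), against a median of 78 bp downstream for 2443 genes. Atp5g2, Atp5l and Atp5d were the genes of the 13 whose strongest peak did not hold a listed start.

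**Figure D4:**
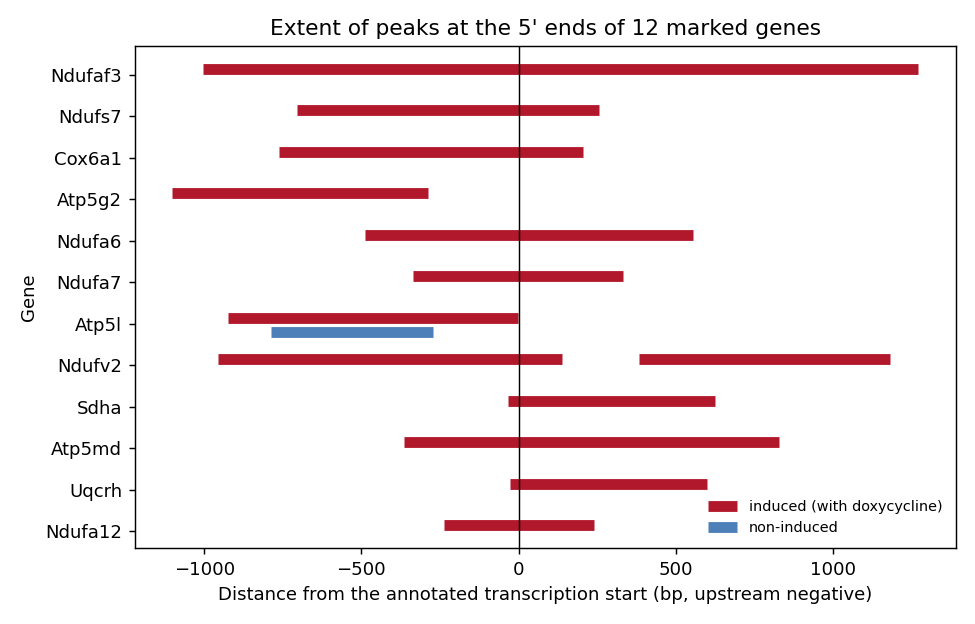
Extent of the peaks at the 5′ ends of the 12 marked genes of known strand, by distance from the annotated start (horizontal axis, bp, upstream negative), induced in red and non-induced in blue, with genes ordered by score. The bars of 10 genes cross the start, those of Atp5g2 and Atp5l end before it, and Ndufv2 has a second bar inside the gene.

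Many of these genes stand beside another gene. Of the 96, 54 (56.2%) have an end of another coding gene within 1 kb of an end of their own, against 24.8% of all coding genes. Of the 54, 10 were marked in the induced list (18.5%, 9.25 to 31.4), against 22.5% of all genes with such a neighbour. Of the 42 without such a neighbour, 6 were marked (14.3%, 5.43 to 28.5), against 10.4%. Of the 17 induced peaks at these genes, 7 (41.2%, 18.4 to 67.1) lay within 1 kb of at least 1 further coding gene, against 19.6% of the 2591, which lies inside that interval. At a shared peak the list does not show which gene it belongs to.

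The median CpG count was higher in marked than in unmarked genes. The 12 with a promoter entry had 12 to 39 CpG in 300 bases, with a median of 25, and the 66 unmarked ones had 2 to 43, with a median of 19, so the ranges overlapped widely. Among all coding genes the medians were 23 for marked and 11 for unmarked genes, so unmarked oxidative phosphorylation genes had more CpG than other unmarked genes. With fewer than 10 CpG, 0 of 5 were marked (upper limit 60%), against 3.18% of all genes of that class. With 10 to 19, 2 of 33 were marked (6.06%, 0.743 to 20.2), against 16.9%. With 20 to 29, 7 of 33 were (21.2%, 8.98 to 38.9), against 23.9%, and with 30 or more 3 of 7 (42.9%, 9.90 to 81.6), against 24.1%. At the rates of all genes in these classes, 15.3 of the 78 genes with an entry would be marked, and 12 were (15.4%, against 13.6% of all genes with an entry).

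**Figure D5:**
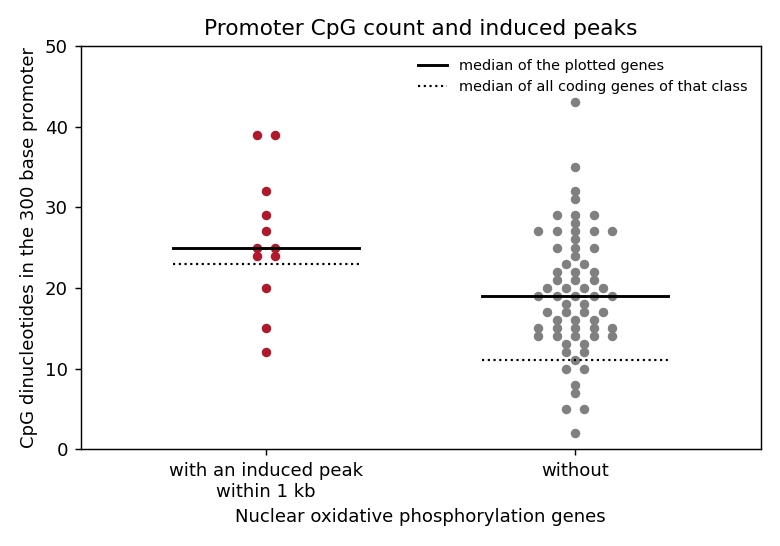
CpG dinucleotides in the 300 base promoter (vertical axis) of the 78 oxidative phosphorylation genes with a promoter entry, each a point, split by whether an induced peak lies within 1 kb. Solid lines are the medians of the plotted genes (25 and 19) and dotted lines those of all coding genes of the same class (23 and 11).

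The NRF1, Ets and YY1 letters stood in a larger share of these promoters than of all coding gene promoters, and the Sp1 letters in about the same share. The NRF1 letters GCATGCGC stood in 12 of 78 promoters (15.4%, interval 8.21 to 25.3), against 3.61% of 17492 coding genes and 2.71% of the 32851 promoters of the table. They stood in 4 of 12 marked genes, which were Ndufa6, Cox6a1, Atp5g2 and Atp5l, and in 8 of 66 unmarked ones. The Ets letters CCGGAAG stood in 18 of 78 (23.1%, 14.3 to 34.0, against 11.9% of coding genes and 8.86% of the table), with 4 of 12 and 14 of 66. The YY1 letters AAGATGGCG stood in 7 (8.97%, 3.68 to 17.6, against 1.94% and 1.40%), of which Ndufs7 was marked. The Sp1 letters GGGCGG stood in 35 (44.9%, 33.6 to 56.6, against 46.3% and 35.7%), with 7 of 12 and 28 of 66. Among all 2373 marked coding genes with an entry, the shares were 5.44% for NRF1, 19.2% for Ets, 3.16% for YY1 and 68.4% for Sp1. The NRF1, Ets and Sp1 shares were thus higher in marked than in all coding genes too, and the Sp1 share of the 12 (58.3%) lay below 68.4%. Each motif was searched on both strands of all 300 bases, matches of different motifs can share bases, and a match is a description of the letters, not of binding.

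Peaks that overlap the genes were counted as well. Any overlap of gene and induced peak was found in 17 of the 96 (17.7%), against 16.5% of all genes. Of these, 3 (3.12%, 0.649 to 8.86, against 5.14%) had no peak within 1 kb of an end, among them Atp5d and Ndufa4l2. Non-induced peaks overlapped 4 genes (4.17%, 1.15 to 10.3), against 10.2% of all genes, just inside that interval. Beside Ndufaf4 and Sdha these were Ndufs1, with peaks of 82.6 and 54.3, and Ndufs4, an accessory subunit of complex I in a long gene, with 3 peaks of 71.0, 68.0 and 50.8. Ndufs1 and Sdha thus had an induced peak at an end and non-induced peaks inside. The 3 genes on chromosome X (Ndufa1, Ndufb11 and Cox7b) were unmarked in both lists, as 0 of 966 coding genes of that chromosome had an induced peak, and on the autosomes alone 17.2% of 93 genes were marked, against 14.2%.

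The nuclear genes of the pathway outside the symbol rule were counted in the same way. Of 87 genes in 4 further lists 18 (20.7%, 12.7 to 30.7) were marked, against the 13.4% of all genes, which lies inside that interval. None was marked in the non-induced list, which allows up to 3.45%, against 1.59% of all genes. Assembly factors outside the symbol rule had 7 of 39 (17.9%), all scoring at most 106. Among them were Cox20 (106) and Cox10 (101), which serve complex IV assembly, and Cox16, Cox18 and Cox17, which do so too, at 74.2, 61.4 and 57.9. Electron carriers and coenzyme Q synthesis had 4 of 17 (23.5%): Coq8a (69.3), Cycs, which encodes cytochrome c (61.7), Coq6 (52.1) and Pdss1 (50.9). Regulators and the mitochondrial DNA machinery had 5 of 17 (29.4%): Polg, the mitochondrial DNA polymerase (105), the GABP subunit gene Gabpb2 (93.2), the helicase gene Twnk (70.2), the RNA polymerase gene Polrmt (62.3) and Sp1 (53.0). The tricarboxylic acid cycle had 2 of 14, Mdh2 (88.2) and Dld (60.8).

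Subunits encoded in mitochondrial DNA were overlapped by peaks of the induced list. Of these 13 genes, 9 were overlapped by 4 induced peaks of 9315 bp in all, and 0 by a non-induced peak. Of all nuclear coding genes, 16.5% were overlapped by an induced peak and 10.2% by a non-induced one. The 9 genes are not independent, as each of 3 peaks overlaps 3 of the genes. Whether these peaks reflect binding of HA-Fbxl10 to mitochondrial DNA was not tested. The peak of 723 lies over the ribosomal RNA genes and reaches the start of ND1. The peak of 266 covers ND2 and parts of ND1 and COX1, that of 82.0 ATP8 and parts of COX2 and ATP6, and that of 334 ND5 and parts of ND4 and ND6. COX3, CYTB, ND3 and ND4L were not overlapped. How the input libraries entered the peak calls is not stated in the labels.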

How the data were processed

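Peak lists from ChIP-seq with an HA antibody were analysed, 1 from induced and 1 from non-induced fibroblasts carrying HA-Fbxl10. The submitters' processing notes name Bowtie2 and mm10, and the peak names show that the authors called peaks with MACS. No source used here gives the caller's version, its threshold, the use of input or any pooling. Each deposited peak has a position and a score written by the authors' caller, whose formula is not given. The 2 input libraries were not used here, and read depth is unknown.

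The lists were assigned to groups by the marks for with and without in their names and in the sample titles. Gene ends came from a RefSeq table of GRCm38.p6, the same coordinates as mm10. Strand and transcription starts came from a RefSeq promoter table (250 bases before to 50 after the start, first listed start per gene), in which 78 of the 96 genes and 17492 of 21887 coding genes matched by gene ID. Distance is that from the nearest base of a peak to a gene end, and overlaps needed 1 bp. Positions are 1-based.

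The members and gene lists were chosen with earlier results of these data known, so no set test was run and no p-value is given. Complex and role were assigned by hand from textbook knowledge. The text names the genes with a peak within 5 kb (1 gene the rule takes is not reported here), core subunits without one and up to 5 marked genes of each further list; the isoform list and chromosome X genes were named after their values were seen. Where 0 genes were marked, the upper limit given is 3 genes of those counted. The calls matched those of bedtools 2.31.1 for every gene of both lists (0 genes differed), and on simulated data 200 of 200 planted peaks fell on the right side of the limit. Alternatives were windows of 500 bp and 5 kb, scores at or above the joint median (61.6), lists of equal length, peak midpoints, listed starts alone and no peaks found in both lists. Autosomes alone were added after the data were seen. The tools were SciPy 1.17.1, pandas 2.3.3, numpy 2.4.6 and, for figures, matplotlib 3.10.9, under Python 3.11.15.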

Additional observations from a re-analysis of the deposited data

How the results depend on the processing

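With 1 list per condition no replicate could be left out, and the counts carry counting error only. Of 96 comparisons of a count with its value under an alternative, 78 stayed within 1.5 times, among them all 8 for the oxidative phosphorylation genes in the induced list (12 to 21 genes). Part of this agreement was fixed in advance. Trimming to equal length cannot change the shorter, induced list. Leaving out chromosome X cannot change its counts either, as no gene there was marked in it. Within 500 bp complex IV had 1 marked gene and all coding genes in the non-induced list 215. Within 5 kb complex V had 5 in the induced list, and the non-induced list had 1173 coding genes, 5 oxidative phosphorylation genes and 2 further pathway genes. At or above the joint median score complexes III and IV had 1 each and the further pathway genes 10, and the non-induced list had 185 coding genes and 1 oxidative phosphorylation gene. Cox6c, Ndufa12, Ndufa2 and Uqcrh were lost there. With lists of equal length the non-induced list had 200 coding genes and 1 oxidative phosphorylation gene. With listed starts alone, where 78 of the 96 genes remain, complexes III and IV had 1 each, and the non-induced list had 170 coding genes and 1 oxidative phosphorylation gene. Without peaks found in both lists the non-induced list had 1 oxidative phosphorylation gene. Whether scores of the 2 lists share a scale was not tested.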
